A study of Mus musculus with 72 samples.

Results

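App, the gene of the amyloid precursor protein, and Bace1, the gene of beta-secretase 1, were followed through the cortex of 36 mice that all carried the 5xFAD transgenes. The pair is 2 of the 1266 genes measured and was chosen by symbol as the substrate and the enzyme of the first cut that releases amyloid-beta. The mice were 7.5 months old, and total RNA of their cortex was counted on the Glial and Neuropathology panels of NanoString's nCounter, in which a barcoded probe is counted for each target without amplification. Of the 3 genotypes, the first had the transgenes alone (5xFAD), and the others added a changed Plcg2, either M28L (M28L_5xFAD) or P522R (P522R_5xFAD), here called M28L and P522R. Each was sampled in 6 females (F) and 6 males (M). Plcg2 encodes phospholipase C-gamma-2, a signalling enzyme found in microglia of the brain, and the M28L and P522R forms were compared because they are held to carry differing risk of Alzheimer's disease. No mouse without the 5xFAD transgenes was among the samples, so every value below is a value on an amyloid-producing background. In this model human mutant APP is expressed from a Thy1 promoter, which is active in neurons. The probe sequences were not used here, and whether the App probe also counts the human transgene's mRNA was not tested.

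The amyloid precursor protein is a membrane protein of neurons and other cells that can be cut along different routes. In the amyloidogenic route beta-secretase 1 cuts first and gamma-secretase, an enzyme complex, cuts the remaining stub within the membrane and releases amyloid-beta. In the competing route an alpha-secretase such as Adam10 cuts inside the amyloid-beta stretch, so that intact amyloid-beta cannot form. Bace1 and App are both strongly expressed by neurons, and Bace1 also processes other neuronal proteins such as Nrg1, Chl1 and L1cam.

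In the RefSeq annotation of build GRCm38.p6, App spans chr16:84952666-85175255 and Bace1 spans chr9:45838545-45862484, and both are protein-coding. The 250 bases before a RefSeq start of App are shown because App was among the brightest genes here and moved with Bace1. They lie at chr16:85173708-85173957 and are printed on the gene's strand, the minus strand, with the letters GGGCGG in capitals. The window falls inside the span given for App, so the start used is not the outermost annotated one.
App promoter: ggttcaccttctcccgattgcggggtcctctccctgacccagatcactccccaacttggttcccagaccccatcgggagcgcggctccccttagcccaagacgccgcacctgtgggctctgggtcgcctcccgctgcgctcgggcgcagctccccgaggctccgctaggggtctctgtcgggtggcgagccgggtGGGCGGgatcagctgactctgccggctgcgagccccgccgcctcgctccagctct
The capitals mark the GC-box core, GGGCGG, searched on both strands, and the match begins 55 bases before the start. The window held 1 such match, and the motif was found in 32.7% of 32851 RefSeq promoter windows of the same length. Neither TATAAA, the TATA-box core, present in 12.4% of windows, nor CACGTG, 1 form of the E-box, present in 6.02%, was found in the App window. Other forms of the E-box were not searched. Its GC content was 70.8%, against a median of 52.4% over all windows. The matches describe these letters only.

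Each mouse was 1 column that joined both panels, and each value was a log2 normalised count. App and Bace1 were both read on the larger panel of 757 genes. On that panel the summed counts per mouse were lower in 5xFAD and M28L females, at 953461 to 1239109 and 921565 to 1176360, than in P522R females, at 1295271 to 1957325. In males they overlapped, at 1428825 to 1775622 in 5xFAD, 1593862 to 1740859 in M28L and 1589745 to 1800708 in P522R. No run, cartridge or lane was given in the labels, so a genotype or sex cannot be told apart from a run that held it. Tissue is bulk cortex, so fewer cells of a type and less RNA per cell cannot be told apart. Animals had separate numbers, except that a pair of M28L females shared number 14 and that an M28L male and a P522R male both had number 21; all were kept as separate mice. Markers of neurons, astrocytes, oligodendrocytes, microglia and endothelium were all counted, none was at 0 in any mouse, and the lowest was Tie1, a gene of endothelium, at 23 counts in 1 mouse.

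App was the fifth brightest of the 1266 genes, with a mean of 14.74 on the log2 scale and a standard deviation within groups of 0.16. Bace1 stood near the middle, at rank 574 with a mean of 9.33 and a standard deviation within groups of 0.13. The median of that standard deviation over all genes was 0.17, so neither gene was unusually variable among mice of a group. The counts behind the values ran from 11201 to 43103 for App and from 289 to 987 for Bace1. Different probes bind with different efficiency, so the gap between the genes is not a ratio of their mRNAs.

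The App level, in normalised counts, was 17037, 21362 and 24577 as the lowest, median and highest of the 6 5xFAD females. The M28L females had 14368, 19969 and 22854, and the P522R females had 25452, 30969 and 36075. Every P522R female therefore lay above every female of the other genotypes, while the 5xFAD and M28L females overlapped. In males the lowest, median and highest App levels were 26114, 29590 and 32743 in 5xFAD. They were 26879, 28737 and 28944 in M28L, whose mice were the closest to one another of any group, and 36457, 39216 and 44700 in P522R. The P522R males were again all above the males of both other genotypes. On the log2 scale the group means rose from M28L females at 14.22 ± 0.25 (SD, n = 6) through 5xFAD females at 14.37 ± 0.19, M28L males at 14.78 ± 0.05, 5xFAD males at 14.84 ± 0.12 and P522R females at 14.92 ± 0.17 to P522R males at 15.29 ± 0.12. Of neighbours in this order, mice overlapped between M28L and 5xFAD females, between M28L and 5xFAD males, and between 5xFAD males and P522R females. They did not overlap at the steps from 5xFAD females to M28L males and from P522R females to P522R males. The latter groups did not overlap in 30.2% of all genes, and the share at the former step was not counted. The highest group mean was 2.09 times the lowest.

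Bace1 followed nearly the same order. In females its lowest, median and highest levels were 435, 539 and 560 normalised counts in 5xFAD, 401, 521 and 551 in M28L, and 671, 732 and 810 in P522R. The lowest P522R female thus exceeded the highest female of either other genotype. In males the levels were 617, 653 and 727 in 5xFAD, 622, 665 and 709 in M28L, and 767, 881 and 970 in P522R. The P522R males stood above all other males, and the 5xFAD and M28L males covered the same range. The log2 group means were 8.93 ± 0.21 (SD, n = 6) in M28L females, 9.01 ± 0.14 in 5xFAD females, 9.37 ± 0.08 in 5xFAD males, 9.37 ± 0.09 in M28L males, 9.53 ± 0.10 in P522R females and 9.75 ± 0.13 in P522R males. Only the step from 5xFAD females to 5xFAD males separated all mice of neighbouring groups, as it did in 53.0% of all genes. The span from the lowest to the highest group mean was 1.77 times, narrower than that of App.

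**Figure D1:**
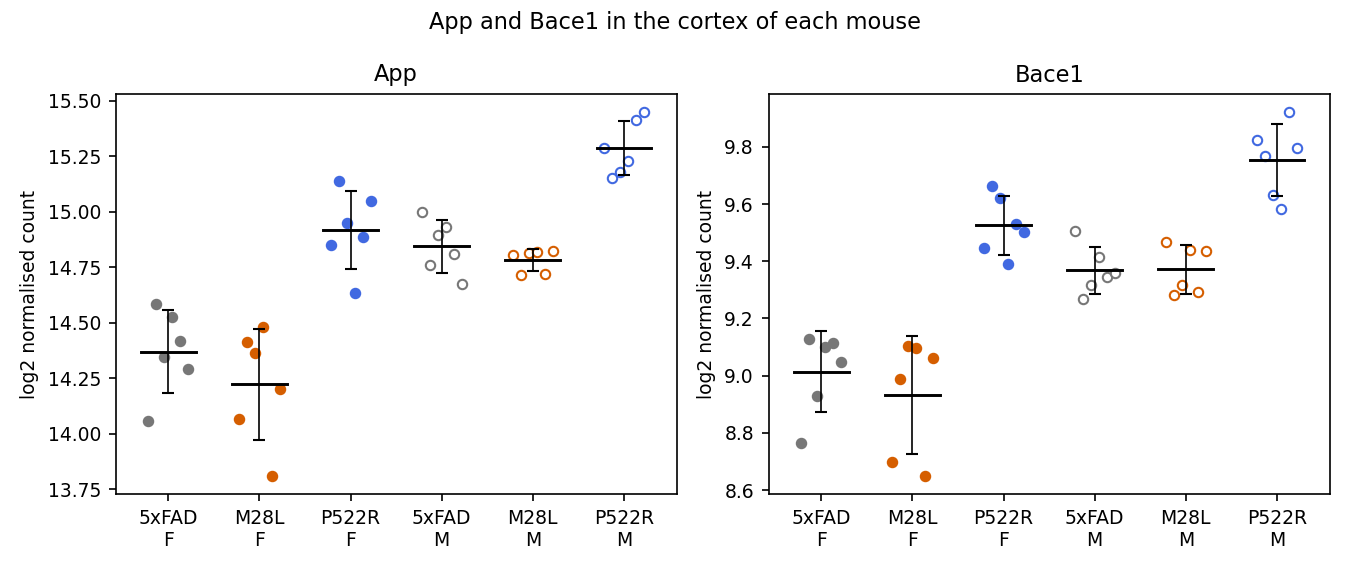
Log2 normalised counts of App (left) and Bace1 (right) in each mouse, by genotype and sex. Points are mice, filled for females and open for males, horizontal lines are group means and bars are 1 SD; in both sexes the P522R mice lie above the 5xFAD and M28L mice for both genes.

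To ask whether the variants altered the expression of the precursor and its beta-secretase, genotypes were compared with limma over 6 group means, with Benjamini-Hochberg adjustment over all 1266 genes and a call at an adjusted p under 0.05. Averaged over the sexes, App was 0.49 higher on the log2 scale in P522R than in 5xFAD (SE 0.06, adjusted p = 2.36e-08), a rise of 40.8%. All 12 P522R mice were above the 5xFAD mean of their own sex. Bace1 was 0.45 higher (SE 0.05, adjusted p = 7.33e-09), a rise of 36.5%, again in 12 of 12 mice. P522R differed from 5xFAD in a large part of the panel: 65.4% of genes were called, and 40.5% were called higher. By the size of the difference App ranked 164 and Bace1 ranked 203 from the top of the 1266 genes, and the median over all genes was 0.08. Against the 50 genes nearest to each in level, whose median differences were 0.14 for App and 0.02 for Bace1, 3 genes rose more than App and 6 rose more than Bace1.

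Against M28L, P522R gave a difference of 0.60 in App (SE 0.06, adjusted p = 2.99e-10) and 0.49 in Bace1 (SE 0.05, adjusted p = 9.50e-10), each in 12 of 12 mice. In this comparison 67.6% of genes were called and 41.5% were called higher. Both comparisons use the same P522R mice, so the second is not independent of the first. M28L and 5xFAD did not separate in either gene. App differed by -0.11 (95% confidence interval -0.23 to 0.02, adjusted p = 0.329), with 10 of 12 M28L mice below the 5xFAD mean of their sex. Bace1 differed by -0.04 (interval -0.15 to 0.07, adjusted p = 0.731), with 6 of 12 mice below. Only 10.3% of genes were called in that comparison. Centring on the housekeeping genes turned both signs without a call, to 0.06 for App and 0.13 for Bace1. Of the 2 housekeeping genes measured, 1 was itself called lower in M28L than in 5xFAD (-0.47), and the other had 0.14, uncalled.

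Each sex alone gave the same calls. In females App was 0.55 higher in P522R than in 5xFAD (SE 0.09, adjusted p = 4.27e-06) and Bace1 was 0.51 higher (SE 0.08, adjusted p = 1.08e-06). The groups did not overlap in either gene, as was so for 26.9% of all genes, and 60.2% of genes were called. In males the differences were 0.44 for App (SE 0.09, adjusted p = 0.000101) and 0.39 for Bace1 (SE 0.08, adjusted p = 7.61e-05). Here too the groups did not overlap, as in 32.8% of genes, and 50.6% were called. The summed counts of the male groups overlapped, those of P522R females lay above those of the other females, and the part of library depth in the rise was not tested. Centring the mice on the 2 housekeeping genes measured of 13 listed, Gusb and Tbp, left the male App rise called (0.38, adjusted p = 0.0232) and took the male Bace1 rise just past the threshold (0.32, adjusted p = 0.0511). These 2 genes were not steady themselves: in P522R against 5xFAD males 1 was called higher (0.48) and 1 lower (-0.35).

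Against M28L the P522R females were 0.70 higher in App (adjusted p = 4.78e-08) and 0.59 higher in Bace1 (adjusted p = 5.03e-08), where 61.0% of genes were called and 21.9% did not overlap. P522R males were 0.50 higher in App (adjusted p = 1.45e-05) and 0.38 higher in Bace1 (adjusted p = 7.48e-05), where 50.0% of genes were called and 36.5% did not overlap. Housekeeping centring ended the male Bace1 call (0.20, adjusted p = 0.236) and left that of App at 0.33 (adjusted p = 0.0485). Neither gene overlapped in these 4 comparisons of P522R with M28L. M28L and 5xFAD overlapped in both genes and both sexes: App differed by -0.15 in females (adjusted p = 0.371) and -0.06 in males (adjusted p = 0.868), and Bace1 by -0.08 (adjusted p = 0.627) and 0.00 (adjusted p = 0.994). In females 3.87% of genes were called and 2.13% did not overlap, and in males 2.05% and 4.58%.

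Whether the sexes differed in these effects was tested as an interaction. The P522R effect against 5xFAD was 0.11 larger in females for App (adjusted p = 0.579, interval -0.15 to 0.36) and 0.12 larger for Bace1 (adjusted p = 0.436, interval -0.09 to 0.34). Neither passed, although 20.9% of genes did. Against M28L the interactions were 0.19 for App (adjusted p = 0.271, interval -0.06 to 0.45) and 0.21 for Bace1 (adjusted p = 0.150, interval -0.01 to 0.43), where 23.5% of genes passed. For M28L against 5xFAD both were -0.09 (adjusted p = 0.9997), and 0 genes passed by limma, with 34 at an unadjusted p under 0.05.

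**Figure D2:**
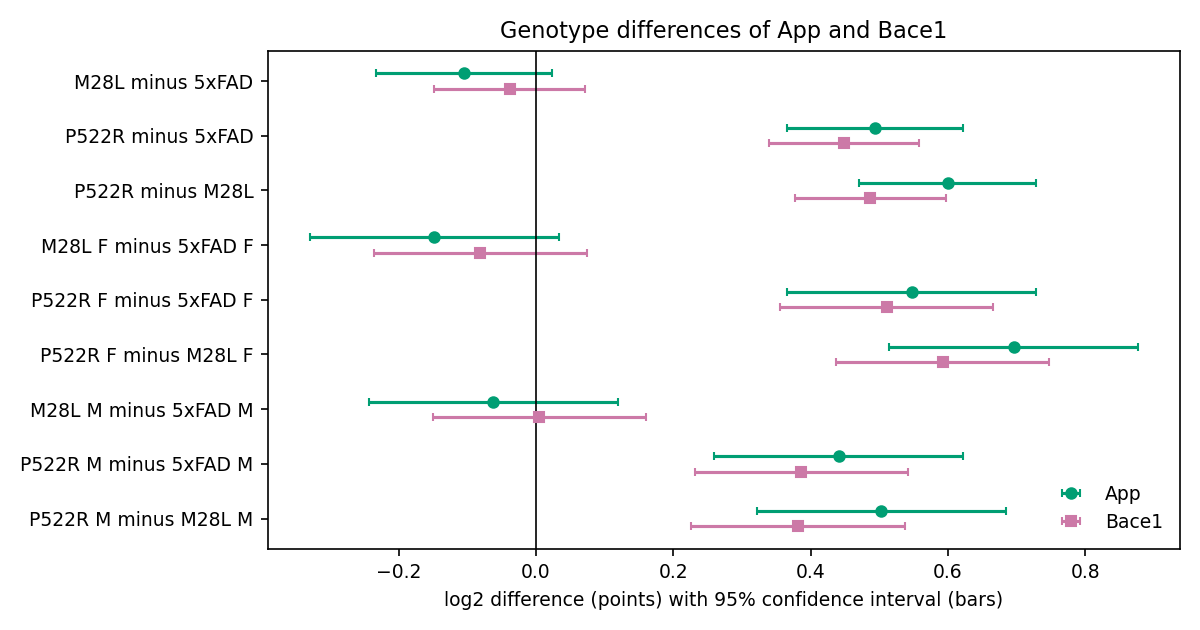
Log2 differences between genotypes in App (circles) and Bace1 (squares), averaged over the sexes and within females (F) and males (M); bars are 95% confidence intervals from limma. All intervals of P522R against 5xFAD or M28L lie above 0, and all intervals of M28L against 5xFAD include 0.

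Females had lower levels than males throughout the panel, and the pair was part of that shift. App was -0.47 in females minus males over all genotypes (SE 0.05, adjusted p = 2.61e-10) and Bace1 was -0.34 (SE 0.04, adjusted p = 9.23e-09). Of all genes 86.4% were called and 83.7% were called lower in females, with a median of -0.38, so App stood a little beyond the median gene and Bace1 a little short of it. Of the 50 genes nearest in level, 42 were less lowered than App, with a median of -0.31. For Bace1 it was 23 of 50, with a median of -0.36. Within genotypes App was -0.47 in 5xFAD, -0.56 in M28L and -0.37 in P522R, and its mice did not overlap between the sexes in any of them. Bace1 was -0.35, -0.44 and -0.23, and its mice overlapped in P522R only. Genes called numbered 72.0% in 5xFAD, 69.0% in M28L and 69.6% in P522R, and genes without overlap 53.0%, 45.9% and 30.2%.

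To remove the common shift, each mouse was centred on the median of its genes. The P522R effects stayed: after centring, App was 0.46 above 5xFAD (limma, adjusted p = 3.86e-08) and Bace1 0.41 above (adjusted p = 1.13e-08), averaged over the sexes. The sex difference of Bace1 did not: it was -0.01 (limma, adjusted p = 0.797), and quantile normalisation gave 0.01 (adjusted p = 0.876). App kept a smaller difference of -0.14 (limma, adjusted p = 0.0165), but its difference within 5xFAD and within P522R no longer passed. In the centred values the order of App groups was the same as before. Its lowest, median and highest values were 14.34, 14.58 and 14.78 in 5xFAD females and 14.51, 14.67 and 14.80 in 5xFAD males. P522R females had 14.72, 15.02 and 15.22, so that 1 of them fell within the 5xFAD female range, and P522R males had 15.02, 15.13 and 15.24. M28L females spread widest, from 13.99 to 14.68 around a median of 14.43, and M28L males ran from 14.52 to 14.69 around 14.62. For Bace1 the 4 groups without P522R closed up to means between 9.12 and 9.22. The P522R males, at 9.60 ± 0.14, and P522R females, at 9.63 ± 0.09, stood together above them. The centred order of Bace1 thus had 1 step without overlap, from the other genotypes to P522R. The share of all genes with such a step after centring was not counted.

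**Figure D3:**
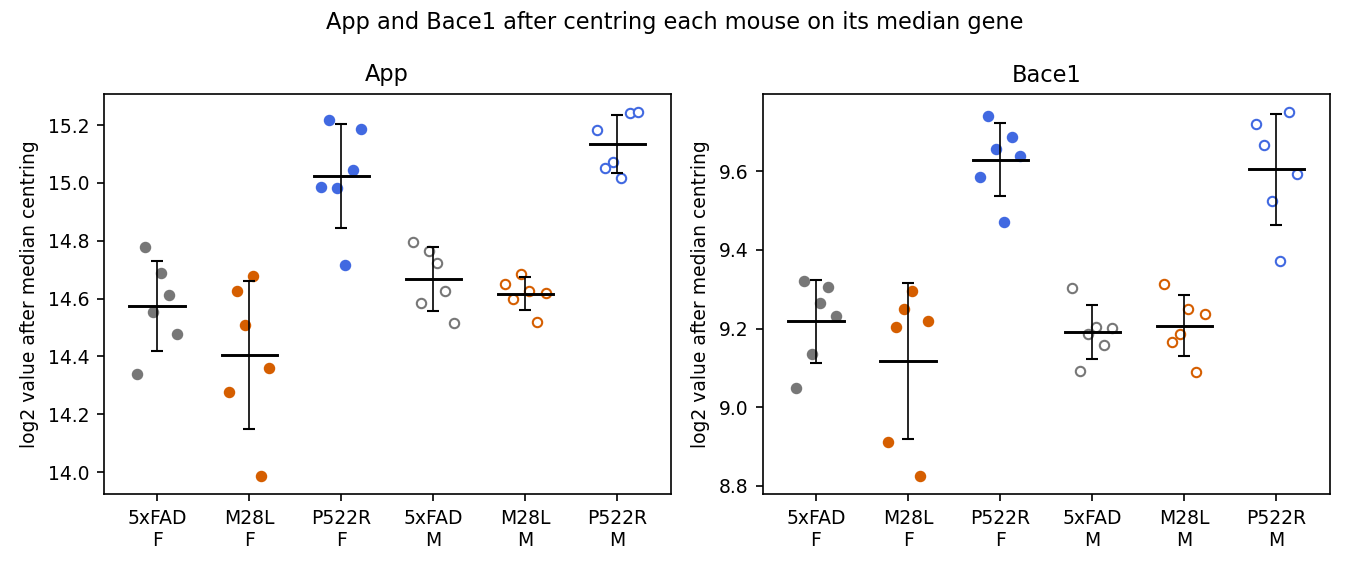
The same plot after each mouse was centred on the median of its 1266 genes (log2 scale), for App (left) and Bace1 (right). Points are mice, lines means and bars 1 SD; for Bace1 the P522R groups of both sexes lie above all 4 other groups, which have means from 9.12 to 9.22.

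The distance between App and Bace1 within a mouse was compared next, and it passed no test between genotypes. The App minus Bace1 value per mouse averaged 5.36 ± 0.09 in 5xFAD females, 5.289 ± 0.12 in M28L females and 5.39 ± 0.11 in P522R females (SD, n = 6 each). In males it averaged 5.48 ± 0.09, 5.41 ± 0.06 and 5.53 ± 0.11. The largest difference within a sex was 0.12, between P522R and M28L males, with a two-sided exact permutation p of 0.0325 and an adjusted p of 0.195 over 6 comparisons. P522R minus 5xFAD was 0.04 in females (exact p = 0.528) and 0.05 in males (exact p = 0.366). None of the 6 passed, and the smallest p that 6 against 6 mice allow is 0.00216.

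Within groups, mice high in App tended to be high in Bace1. Pearson's r was 0.90 in 5xFAD females, 0.88 in M28L females and 0.82 in P522R females, with exact permutation p of 0.0167, 0.0222 and 0.0444. In males it was 0.68, 0.78 and 0.64, with exact permutation p of 0.143, 0.0639 and 0.172. All 6 were positive, but after adjustment over 6 groups the lowest p was 0.0667. Spearman's rho ran from 0.60 to 0.89, with adjusted exact p from 0.175 to 0.242. Without the 2 mice farthest from the App median, an omission that narrows the range of App, r was 0.57 in 5xFAD, 0.03 in M28L and 0.27 in P522R females. In males it was 0.79, -0.11 and 0.28. On values centred on each mouse's median leaving out the 2 mice farthest in App gave 0.43, 0.68 and 0.17 in females and 0.87, 0.997 and 0.76 in males, so r over the remaining mice depended on the scaling. The values of a mouse share its library and its total count, and no test of their independence from these was made.

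**Figure D4:**
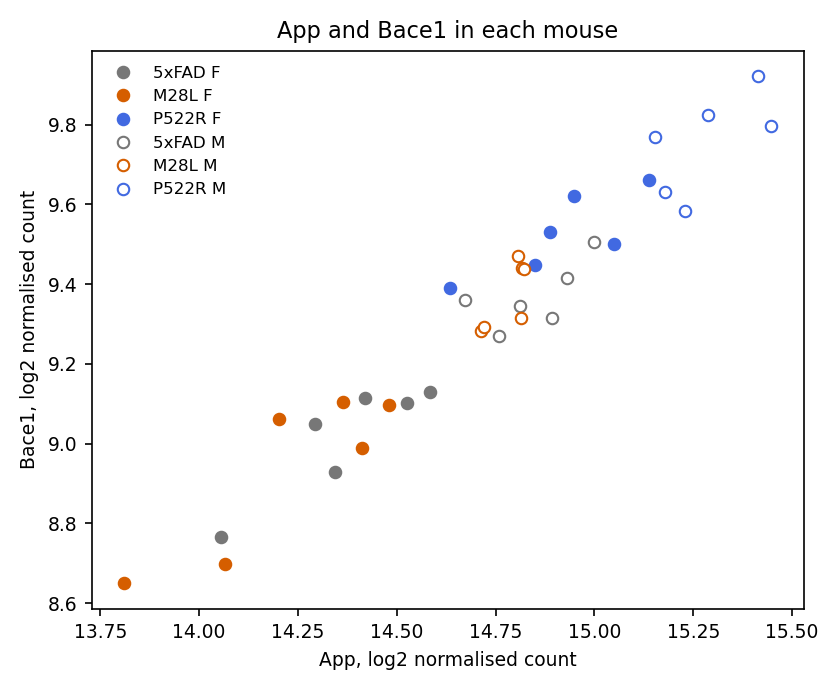
Log2 normalised count of Bace1 against that of App in each of the 36 mice, coloured by genotype, filled for females and open for males. The P522R males have the highest values of both genes, and the 5xFAD and M28L females the lowest.

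The genes most like each member were sought over 1090 genes with a mean log2 of at least 5, as Pearson's r of deviations from the group means over the 36 mice. These mice share libraries, so r is a description. App was most like Ncam1, a neural cell adhesion molecule (r = 0.95), Slc12a5, the neuronal chloride exporter KCC2 (0.91), Atp2b3, a plasma membrane calcium pump (0.89), Chrnb2, a nicotinic acetylcholine receptor subunit (0.89), and Nrcam, another cell adhesion molecule (0.86). Bace1 came eleventh, at 0.81. Bace1 was most like Slc12a5 (0.82), Slc24a3, a sodium-calcium-potassium exchanger (0.82), App (0.81, in the third place), Eno2, the neuronal enolase (0.80), and Sptan1, a spectrin of the membrane skeleton (0.79). All of these genes were read on the same panel. In P522R against 5xFAD the 5 genes most like App differed by 0.49 to 0.73 and all passed. Of all genes 65.4% were called there and 40.5% were called higher. Of the 4 like Bace1 beside App, Sptan1 had 0.13 (adjusted p = 0.0984) and the others 0.24 or more.

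Of 48 other genes listed for the handling of the precursor, 18 were measured. None passed in M28L against 5xFAD by limma, where 10.3% of all genes did and the median of the 18 was -0.02. In P522R against 5xFAD 7 rose and 4 fell, with a median of 0.05 beside 0.08 over all genes, of which 40.5% were called higher and 24.9% lower. Against M28L 8 rose and 4 fell, where 41.5% and 26.1% of all genes did. The share called against 5xFAD, 11 of 18, was near that of the whole panel. The pair thus rose beside genes of the same process that moved either way.

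Aplp2, the precursor-like protein of the App family, rose with App, by 0.36 (SE 0.06, adjusted p = 1.28e-06), in 12 of 12 mice. It was higher by 0.31 in females and 0.41 in males. Adam10, the main alpha-secretase of neurons and the only one measured of 3 listed, went the other way: it was -0.40 in P522R against 5xFAD (SE 0.06, adjusted p = 1.29e-07) and lower in 11 of 12 mice. Its log2 level was 9.47, 9.52 and 9.64 as lowest, median and highest in 5xFAD females, and 8.95, 9.21 and 9.56 in P522R females. In males it was 9.93, 9.99 and 10.15 in 5xFAD and 9.41, 9.50 and 9.77 in P522R. The female groups overlapped and the male groups did not. Of all genes, 26.9% did not overlap in females and 32.8% did not in males. The P522R group means of Bace1 and Adam10 therefore differed from those of 5xFAD in opposite directions, in both sexes.

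Of 6 gamma-secretase genes listed, Psen2, a gene of a catalytic subunit, was measured, and it had 0.03 in P522R against 5xFAD (adjusted p = 0.653). Thy1, whose promoter drives the transgenes, had 0.10 in P522R against 5xFAD averaged over the sexes (adjusted p = 0.0294). It was 0.35 in females (adjusted p = 2.51e-06) and -0.16 in males (adjusted p = 0.0182), with an interaction of 0.50 (adjusted p = 1.84e-05). App was higher in both sexes, and Thy1 was higher in females and lower in males. Whether Thy1 mRNA follows the expression of the transgenes was not tested. The call of the averaged Thy1 difference was lost under every one of 4 other scalings, at values of 0.04 to 0.06. It was also lost when any 1 of 6 mice was left out (5xFAD females 1180 and 1190, P522R females 24 and 60, 5xFAD male 1270 or P522R male 31), with adjusted p up to 0.0637 by limma. The male Thy1 call was lost with housekeeping centring (-0.22, adjusted p = 0.164).

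Among sorting genes, Sorl1, a receptor that steers the precursor away from secretases, rose by 0.48 (adjusted p = 3.66e-08), and Bin1, an endocytic adaptor, was lower (-0.30, adjusted p = 7.82e-08). Gga1, an adaptor that sorts Bace1, averaged -0.03, but it was 0.24 higher in P522R females (adjusted p = 0.0116) and lower in P522R males (-0.31, adjusted p = 0.00228). Rtn4, a reticulon, had -0.01 and passed in neither sex. Among receptors and carriers of amyloid-beta, Lrp1, an endocytic receptor, rose by 0.73 (adjusted p = 1.36e-09), Clu, also called apolipoprotein J, rose by 0.18 (adjusted p = 0.00767), and Apoe, the main apolipoprotein of the brain, was lower (-0.38, adjusted p = 3.91e-05). By sex, Clu was 0.36 in females (adjusted p = 0.000346) and did not pass in males, and Apoe was -0.14 in females (adjusted p = 0.271) and -0.63 in males (adjusted p = 8.05e-06). Ide, a protease that degrades amyloid-beta, had 0.22 (adjusted p = 0.145). Of the other substrates of beta-secretase 1, L1cam rose by 0.28 (adjusted p = 0.000107), and Nrg1 had 0.08 and Chl1 -0.09. In the tau group Cdk5, a tau kinase, rose by 0.18 averaged over the sexes and passed in neither sex alone. Its activator Cdk5r1 averaged 0.14 higher with 6 of 12 mice above the 5xFAD mean of their sex: it was 0.38 in females (adjusted p = 1.22e-05) and -0.10 in males (adjusted p = 0.195). Gsk3b, another tau kinase, was lower, at -0.23. Mapt, the gene of tau itself, averaged 0.02, with 0.16 in females (adjusted p = 0.0227) and -0.12 in males (adjusted p = 0.0872). The calls of Clu, Cdk5 and Cdk5r1 were each lost under 2 or more of the 4 other scalings, with the direction kept.

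**Figure D5:**
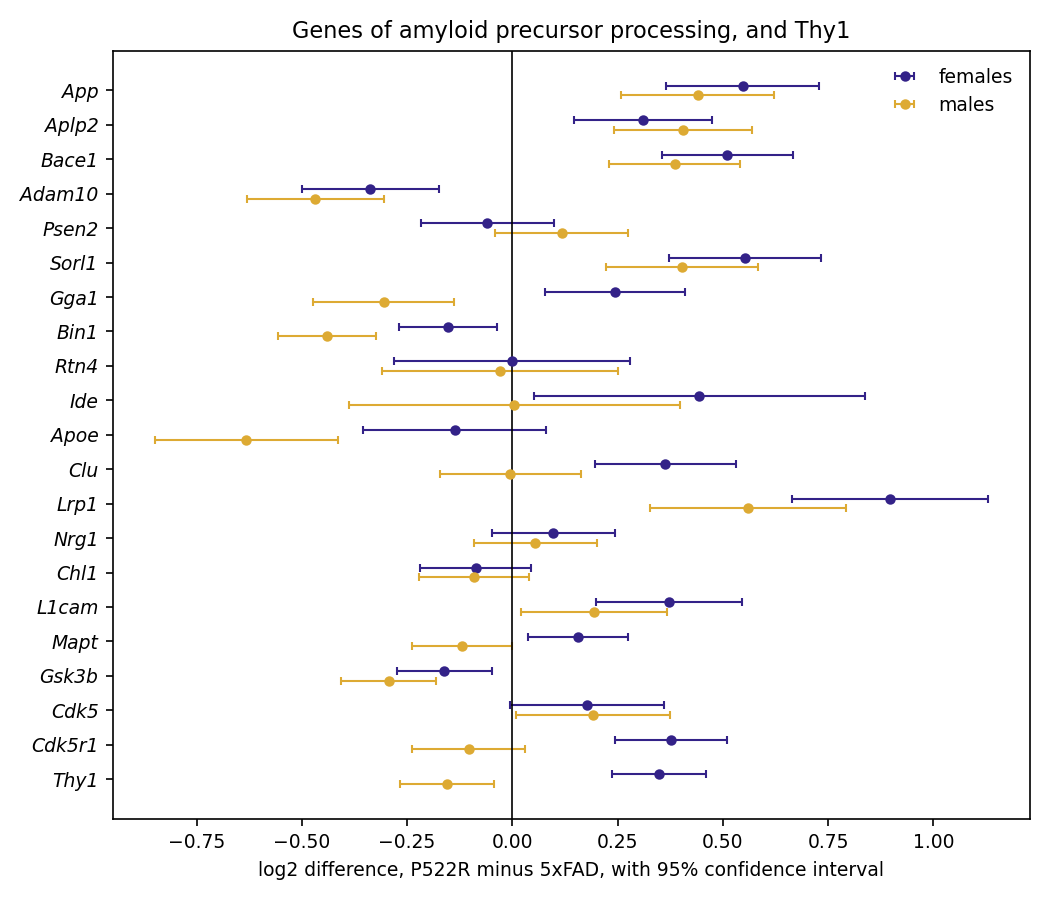
Log2 difference of P522R minus 5xFAD in females and males for App, Bace1, the 18 other measured genes of precursor handling and Thy1; bars are 95% confidence intervals. Of the genes called in both sexes, App, Aplp2, Bace1, Sorl1 and Lrp1 lie above 0 in both. Adam10, Bin1 and Gsk3b lie below 0 in both, while Thy1 lies above 0 in females and below 0 in males.

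Markers of brain cell types were set beside these results. In P522R against 5xFAD 10 of 14 measured neuronal markers were higher and 2 lower, with a median of 0.19, beside 40.5% and 24.9% of all genes. In females 11 were higher and 0 lower, with a median of 0.42, beside 39.3% and 20.9% of all genes. In males 5 were higher and 4 lower, with a median of 0.01, beside 26.8% and 23.8%. The summed level of the 14 ran from 55060 to 67227 normalised counts in 5xFAD females and from 74087 to 87535 in P522R females. In males it ran from 88933 to 93992 in 5xFAD and from 91997 to 105968 in P522R. So neuronal markers moved with App and Bace1 in females, while in males, where App was 0.44 and Bace1 0.39 higher, the sums overlapped. Averaged over the sexes, astrocyte markers gave 4 higher and 1 lower of 6, oligodendrocyte markers 3 and 1 of 7, and precursors of oligodendrocytes 3 and 0 of 3. Microglial markers gave 2 and 1 of 8, and endothelial markers 0 and 2 of 4. In the same order, females had 3 and 1, 3 and 1, 3 and 0, 2 and 1, and 2 and 0. Males had 1 and 1, 3 and 1, 3 and 0, 1 and 1, and 0 and 3. The median of the endothelial markers was 0.26 in females and -0.50 in males. In M28L against 5xFAD none of the 14 neuronal markers passed, beside 10.3% of all genes. There microglial markers gave 1 higher and 3 lower of 8, astrocyte markers 0 and 1 of 6, and endothelial markers 0 and 1 of 4. No marker of oligodendrocytes or their precursors passed in that comparison. The part of the cell makeup in the App and Bace1 differences was not tested.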

How the data were processed

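NanoString nCounter counts of 1266 genes were analysed in 36 mice, each registered as 2 records, 1 per panel. RNA was prepared with a PureLink kit, per the labels' protocols. The authors deposited log2 values of normalised counts, 1 column per mouse; their normalisation method was not given in the sources used here. Of 1517 rows, 251 named no gene and were left out. Within each mouse and panel 100.0% of the linear values were whole multiples of 1 step (tolerance 0.05), which gave the counts and totals; these ran from 237563 to 1957325 per mouse and panel. Tests were run on the deposited log2 values.

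Means of the 6 groups (genotype by sex) were fitted with limma 3.58.1 in R 4.3.3 (eBayes with trend, 30 residual degrees of freedom), with Benjamini-Hochberg adjustment over all genes and a threshold of 0.05; recovery was tested on simulated data. App minus Bace1 and correlations used exact permutation tests in scipy 1.17.1, two-sided. Named were App, Bace1, list members that passed a genotype comparison, alpha- and gamma-secretase genes, and the 5 genes most correlated with each of App and Bace1; other listed genes are named with values only. The members and lists were chosen with earlier results of these data known. Alternatives were other scalings (median, median within panel, quantile, housekeeping), a pseudocount of 20, a filter at a mean log2 of 5, no trend, robust eBayes, no sex term, 2 genotypes only, number 14 as 1 mouse, an index block, and each mouse left out. Plcg2 was not analysed here, and 1 gene of the precursor list is not reported here and is outside its counts.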

Additional observations from a re-analysis of the deposited data

Results flagged for a closer look

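No mouse stood apart from the rest of its group in App, Bace1, their difference, Aplp2, Adam10, Psen2 or Thy1. Dixon's criterion was applied in 42 checks, which reuse the same 6 groups of 6 mice and so are not independent. Chance alone would single out a mouse in about 1 check in 20.

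The P522R effect differed between the sexes, by limma's interaction term (females minus males), in some genes described beside App and Bace1, but in neither of the pair. Against 5xFAD it passed in 6 of the 18 other genes of the list and in Thy1, beside 20.9% of all genes, and against M28L in 5 of the 18 and in Thy1, beside 23.5%. Against 5xFAD the interaction was 0.50 in Thy1 (adjusted p = 1.84e-05), 0.55 in Gga1 (adjusted p = 0.000901), 0.48 in Cdk5r1 (adjusted p = 0.000378), 0.29 in Bin1, 0.49 in Apoe, 0.37 in Clu and 0.28 in Mapt. Against M28L it was 0.44 in Thy1 (adjusted p = 0.000112), 0.45 in Gga1, 0.48 in Cdk5r1, 0.49 in Apoe, 0.43 in Clu and 0.31 in Mapt. All were positive, and the median interaction over all genes was 0.10 against 5xFAD and 0.08 against M28L. Of those against 5xFAD, Thy1 and Gga1 passed under all 4 other scalings. Clu passed under none of the 4, and Bin1, Apoe and Mapt each lost the call under 3 of 4. Cdk5r1 lost it with housekeeping centring (adjusted p = 0.0817). Against M28L all 6 lost the call with housekeeping centring and kept it under the other 3 scalings. The sign was kept throughout.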

How the results depend on the processing

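The P522R rises of App and Bace1, averaged over the sexes, kept direction and call under all 48 alternatives. Against 5xFAD they ran from 0.44 to 0.52 for App and 0.40 to 0.47 for Bace1. Against M28L they ran from 0.40 to 0.67 and 0.28 to 0.54. Leaving out each mouse changed no call of App or Bace1; Bace1 in M28L against 5xFAD males, near 0, ran from -0.0154 to 0.0321.

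Housekeeping centring rests on 2 genes that themselves differed between genotypes. It moved the median of all genes in M28L against 5xFAD to 0.17. It took Bace1 below the threshold in males against 5xFAD (0.32) and against M28L (0.20). Without a call on either side it turned M28L against 5xFAD to 0.062 in App and 0.13 in Bace1 over both sexes, to 0.073 and 0.14 in females and to 0.050 for App in males, and the matching interactions to 0.0232 and 0.0235. Also uncalled, median centring within panel turned Bace1 in M28L against 5xFAD to 0.017, quantile normalisation turned App there in males to 0.0195, and the P522R interactions against 5xFAD became -0.021 (App) and -0.00232 (Bace1) with median centring and -0.13 (App) with quantile normalisation.

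Sex differences depended on the scaling. Over all genotypes Bace1 lost its call with median centring (-0.013), median centring within panel (-0.082), quantile normalisation (0.0092) and housekeeping centring (-0.077). In the same order it had 0.027, -0.086, 0.0300 and -0.15 in 5xFAD, -0.0901, -0.16, -0.067 and -0.12 in M28L, and 0.025, 0.000824, 0.064 and 0.038 in P522R. App had -0.093, -0.21, -0.13 and -0.27 in 5xFAD and -0.11, -0.14, -0.26 and -0.10 in P522R, uncalled, and -0.24 in M28L with housekeeping centring.

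Of the 18 other genes, median centring called 5 higher in P522R against M28L, where 853 of all 1266 genes were called in either direction. Median centring within panel called 1 lower in M28L against 5xFAD, beside 142 genes called. Housekeeping centring called 2 higher there, beside 306, and 4 higher in P522R against 5xFAD, beside 642. In P522R against M28L it called 3 higher and 7 lower, beside 666. Leaving out the sex term gave 3 higher in each P522R comparison, beside 572 genes called against 5xFAD and 608 against M28L. With housekeeping centring P522R against M28L turned, uncalled, to -0.057 in Nrg1, -0.048 in Cdk5, -0.084 in Cdk5r1 and -0.079 in Thy1. Over all genes, M28L against 5xFAD had 30 calls without the sex term and 306 with housekeeping centring, in place of 130; the latter gave 56 and 26 interactions in place of 264 and 297.

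Same-numbered mice are not paired by the labels, which share only 1 number between groups. A replicate block on the index within sex gave 0.48 for App and 0.46 for Bace1 in P522R against 5xFAD and changed no call of theirs in the genotype comparisons averaged over the sexes. Except where stated, the cause of a change was not tested. Bace1 rests on 289 counts or more per mouse.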
